A study of Mus musculus with 2 samples.

Results

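The genes described here are 8 mouse genes that buffer, sense or move zinc: the metallothionein genes Mt1 and Mt2, the zinc-sensing transcription factor gene Mtf1, the exporter gene Slc30a1 and the importer genes Slc39a1, Slc39a7, Slc39a10 and Slc39a14. They were chosen by symbol, through the Entrez gene IDs of the deposited count table, and all 8 were found among its 24532 gene IDs. RNA was sequenced from muscle stem cells, which express Pax7 and rebuild muscle fibres after injury, of male C57BL/6 mice, with 1 library from wild-type (WT) and 1 from knockout cells labelled dKO. The dKO genotype combines Pax7-CreER, a tamoxifen-inducible Cre recombinase driven by Pax7, Esr2–/–, the loss of estrogen receptor beta, and a Cre-deletable allele of a gene that is not reported here. Mice received oral tamoxifen (20 mg/mL) for 5 days at 3 months of age. The titles of both samples also read 6M, which the labels do not explain. The protocol does not set the groups apart, and it was not stated how many animals each library pooled or in which cells Esr2 was lost. Cells were sorted from digested limb muscle as CD31-, CD45- and Sca1-negative and Vcam1-positive, and RNA was taken without culture. With 1 library per genotype no test between genotypes was possible, and every difference below is between these 2 libraries, with no replicate check.

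Cells hold most of their zinc bound to protein. Metallothioneins are very small, cysteine-rich proteins that bind zinc and copper ions and also react with oxidants. When free zinc rises, the zinc-finger protein encoded by Mtf1 binds metal response elements in gene promoters and induces Mt1, Mt2 and Slc30a1. Zinc crosses membranes through 2 transporter families: ZnT proteins (Slc30 genes) move it out of the cytosol, and ZIP proteins (Slc39 genes) move it in. Metallothionein genes, also in skeletal muscle, are known to respond to glucocorticoids, oxidative stress and inflammatory cytokines as well as to metals.

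Promoter sequences are shown for Mt1, Mt2 and Slc30a1, the 3 members named above as induced by the Mtf1 protein. They hold the letters of the element through which that protein acts. The 250 bases before an annotated transcript start, 5′ to 3′ on the plus strand, come from RefSeq on GRCm38.p6, the assembly that mm10 names. Mt1 is chr8:94178839-94179088, Mt2 is chr8:94172368-94172617 and Slc30a1 is chr1:191906531-191906780. Capitals mark the metal response element core, searched on both strands as TGCACNC or TGCGCNC.
Mt1: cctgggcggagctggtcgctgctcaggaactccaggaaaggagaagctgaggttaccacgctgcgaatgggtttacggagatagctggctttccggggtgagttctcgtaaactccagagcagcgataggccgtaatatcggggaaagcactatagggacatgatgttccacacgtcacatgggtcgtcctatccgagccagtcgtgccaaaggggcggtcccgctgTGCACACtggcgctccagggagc
Mt2: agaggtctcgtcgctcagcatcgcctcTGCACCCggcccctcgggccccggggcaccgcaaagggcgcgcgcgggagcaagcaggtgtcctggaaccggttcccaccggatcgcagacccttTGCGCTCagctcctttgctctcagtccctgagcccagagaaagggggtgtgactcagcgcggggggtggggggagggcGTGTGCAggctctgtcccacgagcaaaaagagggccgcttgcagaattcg
Slc30a1: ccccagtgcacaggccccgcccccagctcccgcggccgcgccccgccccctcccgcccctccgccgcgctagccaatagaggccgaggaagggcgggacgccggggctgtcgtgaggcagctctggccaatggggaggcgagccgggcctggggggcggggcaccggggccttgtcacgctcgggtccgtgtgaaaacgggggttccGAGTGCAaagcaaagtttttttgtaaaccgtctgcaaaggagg
The annotated spans of Mt1 and Slc30a1 begin inside these windows, since another transcript model of each gene starts earlier. Over the full 300-base windows, which add 50 bases after the start, Mt2 had 4 matches, Mt1 had 3 and Slc30a1 had 2. Of these, 1 in Mt2, 2 in Mt1 and 1 in Slc30a1 reached or lay after the start used. Whether that start is the main one in these cells was not checked. The start used for Mt1 may lie upstream of the main one, so its window may miss part of the proximal promoter. The match count of Mt1 is therefore not comparable with that of Mt2. Of 32851 windows of this length, 25.7% held at least 1 match, 7.11% at least 2, 1.97% at least 3 and 0.518% at least 4. The windows of Mtf1, Slc39a1, Slc39a7 and Slc39a10 had 0 matches, which says only that these letters are not there. The core of the antioxidant response element, searched as TGACNNNGC, matched 1 time each in Mt2, Slc30a1 and Slc39a1, and at least 1 time in 12.4% of windows. Mt1 had 0 matches in its window, which may miss part of its proximal promoter. In Mt2 the match read TGACTCAGC, which also contains the letters of the AP-1 site, TGACTCA. No such match overlapped a metal response element core. Slc39a14 had no window in that table.

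Reads counted on transcripts totalled 36636680 in WT and 43699831 in dKO. Of the targeted genes, Esr2 was near the limit of detection (71 WT and 45 dKO counts); its deleted part is not stated, so the label is not checked by them. A gene's count was the sum of its transcript rows, and CPM is counts per mega-read of library size after TMM scaling. A gene was called measured if the library with more reads of it had 10 or more. It was called 2-fold apart when the log2 ratio of dKO CPM + 1 over WT CPM + 1 was at least 1 in size. Of 14885 measured genes, 286 (1.92%) were 2-fold higher and 640 (4.30%) 2-fold lower in dKO, or 6.22% in either direction, with a median log2 ratio of −0.02. Abundant genes stood higher in dKO as a whole: the most abundant eighth, with a mean of at least 111 CPM, had a median log2 ratio of 0.29, against −0.16 in the least abundant eighth.

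All 8 members were measured, and 0 of them were 2-fold higher and 0 lower in dKO, against 6.22% of all measured genes. Each lay within 1.5-fold, beyond which 22.1% of all measured genes lay in either direction. Mt1 with a trend on abundance and transcript length subtracted (−0.59) and Slc30a1 under library totals (−0.59) lay just beyond the 1.5-fold line. The members' log2 ratios ran from −0.35 for Slc30a1 to 0.45 for Slc39a1, with 4 above 0, 4 below 0 and a median of −0.09. With only 8 members, nothing particular to zinc genes can be read from this count. The plot of differences against abundance places them in the body of the distribution.

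**Figure D1:**
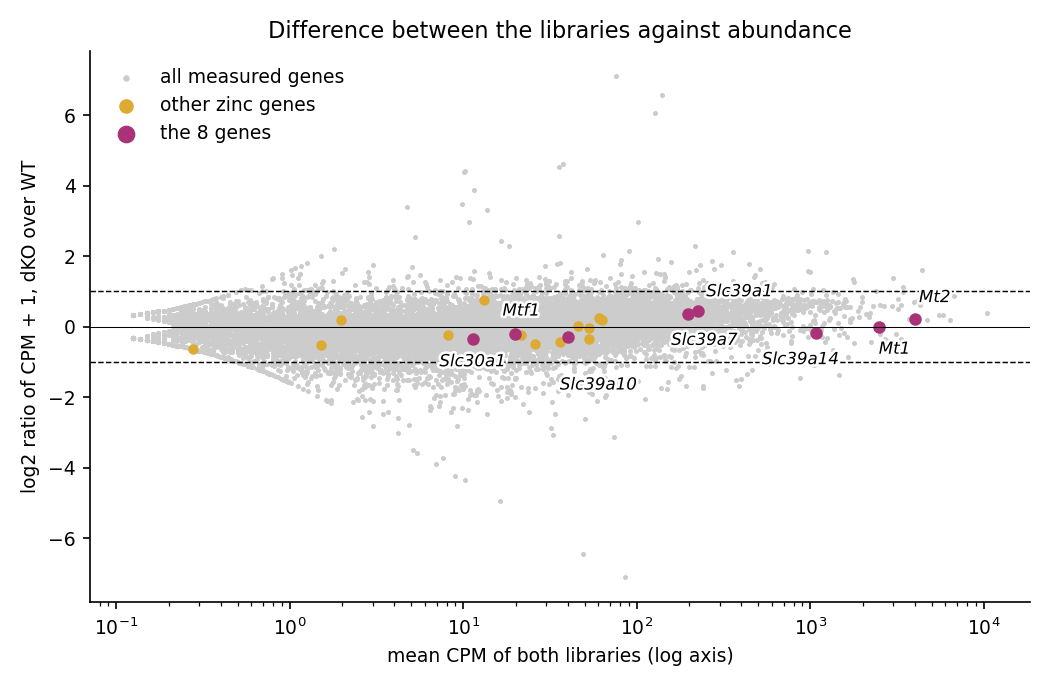
Log2 ratio of CPM + 1 (dKO over WT) against the mean CPM of both libraries on a log axis, 1 point per measured gene, with dashed lines at the 2-fold rule. All 8 genes (purple) and the 13 other measured zinc genes (yellow) lie between the dashed lines, and Mt1 and Mt2 lie near the right edge of the cloud.

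The metallothionein transcripts were among the most abundant per length in both libraries. Mt2 was the gene with the highest level per transcript length of all 14885 measured genes in both libraries, and Mt1 ranked 3 in both. Mt2 lies on chromosome 8 from 94172618 to 94173567 and Mt1 5315 bases further on, from 94178883 to 94180327 (GRCm38.p6). Mt2 had 6654 CPM per kilobase in WT and 7713 in dKO, and Mt1 had 4585 and 4552. Reads of the pair were 0.672% of the WT total and 0.621% of the dKO total. Such levels per length compare genes within a library and were computed from the row of each gene with the most reads.

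Mt1 was equal in both libraries to within counting error. It had 98987 counts in WT and 99162 in dKO, or 2474 and 2478 CPM. The ratio of dKO to WT was 1.001, with a 95% interval of 0.993 to 1.010 that covers counting error only, as do all intervals here. That equality rests on the scaling of the libraries, since the log2 ratio of 0.00 became −0.25 under library totals alone and −0.59 once a trend on abundance and transcript length was subtracted.

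Mt2 was slightly higher in dKO under TMM scaling. It had 147365 counts in WT and 172367 in dKO, or 3684 and 4307 CPM, a 1.17-fold ratio (1.16 to 1.18). Its log2 ratio of 0.23 was below the 0.29 median of the most abundant eighth of genes, and it turned to −0.028 under library totals and to −0.25 with the trend subtracted. No direction can therefore be given for either metallothionein that holds under each scaling. The balance between the pair does not depend on scaling, because both counts come from the same library. Mt2 had 1.49 reads per Mt1 read in WT (1.477 to 1.501) and 1.74 in dKO (1.725 to 1.752), or 1.45 and 1.69 per transcript length. The counting intervals do not overlap, but the spread of this ratio between animals is unknown. The pair's transcripts are alike, so the division of reads between them, or with similar loci, could not be checked.

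**Figure D2:**
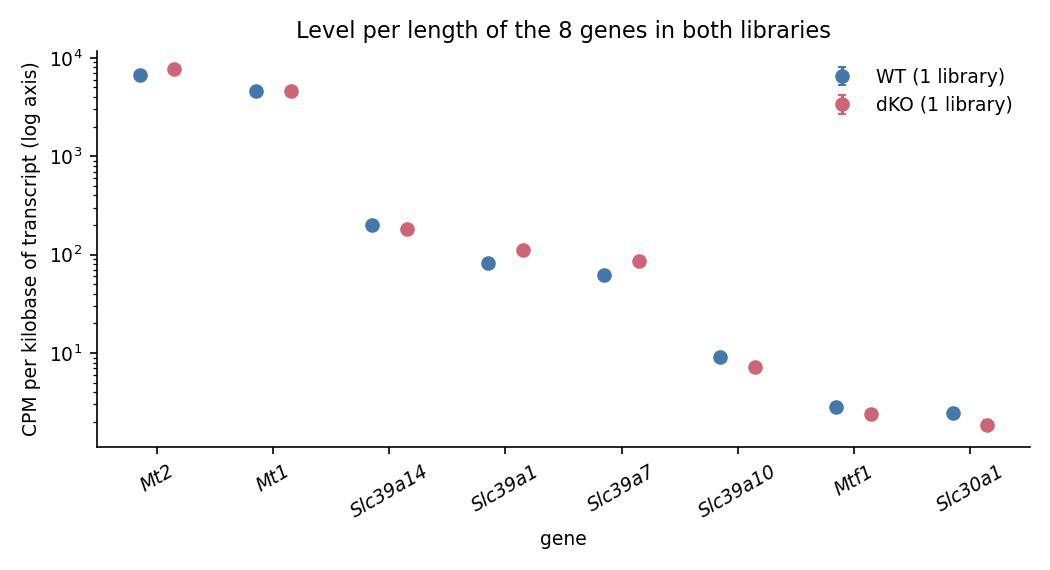
Level of each of the 8 genes in CPM per kilobase of transcript (log axis) in the WT (blue) and dKO (red) library, 1 library each, with 95% Poisson intervals that are mostly smaller than the points. Genes fall in the same order in both libraries, from Mt2 (6654 and 7713) to Slc30a1 (2.46 and 1.87).

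The sensor and the plasma membrane exporter were the members with the lowest levels. Mtf1 (chromosome 4, 124802549 to 124849800) had 856 counts in WT and 732 in dKO, or 21.4 and 18.3 CPM. The dKO to WT ratio was 0.855 (0.773 to 0.945), and the log2 ratio of −0.22 turned to 0.066 with the trend subtracted. Slc30a1, which encodes ZnT1, the exporter that moves zinc out across the plasma membrane (chromosome 1, 191906697 to 191913248), had 513 and 393 counts, or 12.8 and 9.82 CPM. Its ratio of 0.766 (0.670 to 0.875) was the lowest of the 8. The log2 ratio was −0.35, at percentile 24.2 of all measured genes, and −0.07 with the trend subtracted. Per length, Mtf1 (2.82 CPM per kilobase, 2.63 to 3.01) and Slc30a1 (2.46, 2.25 to 2.68) could not be ordered in WT, as their intervals overlap. In dKO the intervals of Mtf1 (2.39, 2.22 to 2.57) and Slc30a1 (1.87, 1.69 to 2.06) did not overlap, though they cover counting error only. Of the 3 genes named above as induced by the Mtf1 protein, Slc30a1 had a log2 ratio of −0.35, Mt1 one of 0.00 and Mt2 one of 0.23. All 3 were below 0 under library totals (−0.59, −0.25 and −0.028) and with the trend subtracted (−0.07, −0.59 and −0.25). The median of all measured genes was itself −0.24 under library totals, and 0.0063 with the trend subtracted.

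Slc39a14 was the leading importer gene. It encodes ZIP14, a plasma membrane carrier of zinc, iron and manganese that inflammatory cytokines are known to induce, and lies on chromosome 14 from 70303467 to 70351452. It had 45742 counts in WT and 40547 in dKO, or 1143 and 1013 CPM, a ratio of 0.886 (0.874 to 0.898) and a log2 ratio of −0.17. Per transcript length, Slc39a14 made up 50.4% of the summed level of the 11 measured ZIP genes in WT and 42.7% in dKO. In CPM of summed rows, its share was 66.8% in WT and 60.1% in dKO. Its level was 199 CPM per kilobase in WT and 181 in dKO, and its rank among all measured genes was 270 and 386. The log2 ratio stayed below 0 under each alternative run, from −0.48 to −0.13.

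Slc39a1 and Slc39a7 were the next importers in level, and both had higher values in dKO. Slc39a1 encodes ZIP1, a broadly expressed zinc importer of the plasma membrane (chromosome 3, 90248190 to 90253613). It had 7593 counts in WT and 10397 in dKO, or 190 and 260 CPM, a ratio of 1.37 (1.33 to 1.41) that was the highest of the 8. Its log2 ratio of 0.45 lay at percentile 84.9 of all measured genes and was 0.08 with the trend subtracted.

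Slc39a7 encodes ZIP7, which releases zinc from the endoplasmic reticulum into the cytosol (chromosome 17, 34028266 to 34031690). It had 6853 counts in WT and 8881 in dKO, or 171 and 222 CPM, a ratio of 1.30 (1.26 to 1.34). Its log2 ratio was 0.37 and became 0.03 with the trend subtracted. Both genes belong to the most abundant eighth, whose median was 0.29. In share of the ZIP level per length, Slc39a1 went from 20.6% in WT to 26.0% in dKO and Slc39a7 from 15.7% to 20.4%. Those shares used the row of each gene with the most reads. In CPM of summed rows, the shares were 11.1% and 15.4% for Slc39a1 and 10.0% and 13.2% for Slc39a7.

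Slc39a10 encodes ZIP10, a plasma membrane importer of the same subfamily as ZIP14 (chromosome 1, 46807544 to 46925776). It had 1781 counts in WT and 1435 in dKO, or 44.5 and 35.9 CPM, a ratio of 0.805 (0.751 to 0.864). The log2 ratio was −0.30 and stayed below 0 under each alternative run, from −0.55 to −0.24. The ratios of Slc39a1 and Slc39a7 stayed above 0 under each of them, and those of Slc30a1, Slc39a10 and Slc39a14 below. The plot of the 8 genes under other scalings shows how far the trend brings Slc39a1 and Slc39a7 toward 0.

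**Figure D3:**
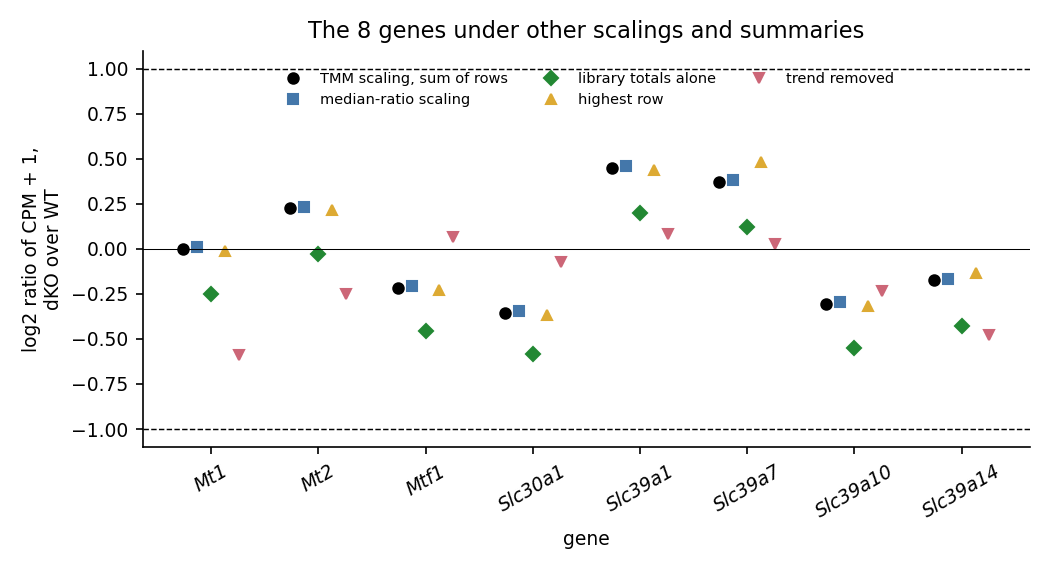
Log2 ratio of CPM + 1 (dKO over WT) of each of the 8 genes under 5 settings: TMM scaling of summed rows, median-ratio scaling, library totals alone, the row with the highest mean share, and the trend on abundance and transcript length subtracted. No point reaches the dashed 2-fold lines, and Mt1, Mt2 and Mtf1 have points on both sides of 0.

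The deposited table divides some genes over several transcript rows, which does not concern Mt1, Mt2, Mtf1, Slc30a1, Slc39a1 or Slc39a10, with 1 row each. Slc39a14 had 3 rows. The row with the most reads (4927 bases) had 39067 counts in WT and 35905 in dKO, or 85.4% and 88.6% of the gene. A second row of 4927 bases had 5247 in WT and 2360 in dKO (log2 ratio −1.14), so it alone was 2-fold lower. The shortest row (4893 bases) had 1428 counts in WT and 2282 in dKO (log2 ratio 0.66). Rows carry no transcript name, so which exons set them apart cannot be told from these files.

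Slc39a7 had 2 rows with opposite signs. The row of 2393 bases had 5899 counts in WT and 8340 in dKO (log2 ratio 0.50), and the row of 2108 bases had 954 and 541 (−0.78). Single rows of genes with several rows were 2-fold apart in 27.1% of 11522 cases with at least 10 counts, 12.0% higher and 15.1% lower, against 6.22% of whole genes. The importer gene Slc39a8, picked here after its values were seen, shows how rows can trade reads. All its 71 WT reads were in a row of 3383 bases and all its 86 dKO reads in a row of 3533 bases, while the sums gave a log2 ratio of 0.18. How reads were divided between rows is not stated, and its part in the row values of Slc39a14 and Slc39a7 was not tested.

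**Figure D4:**
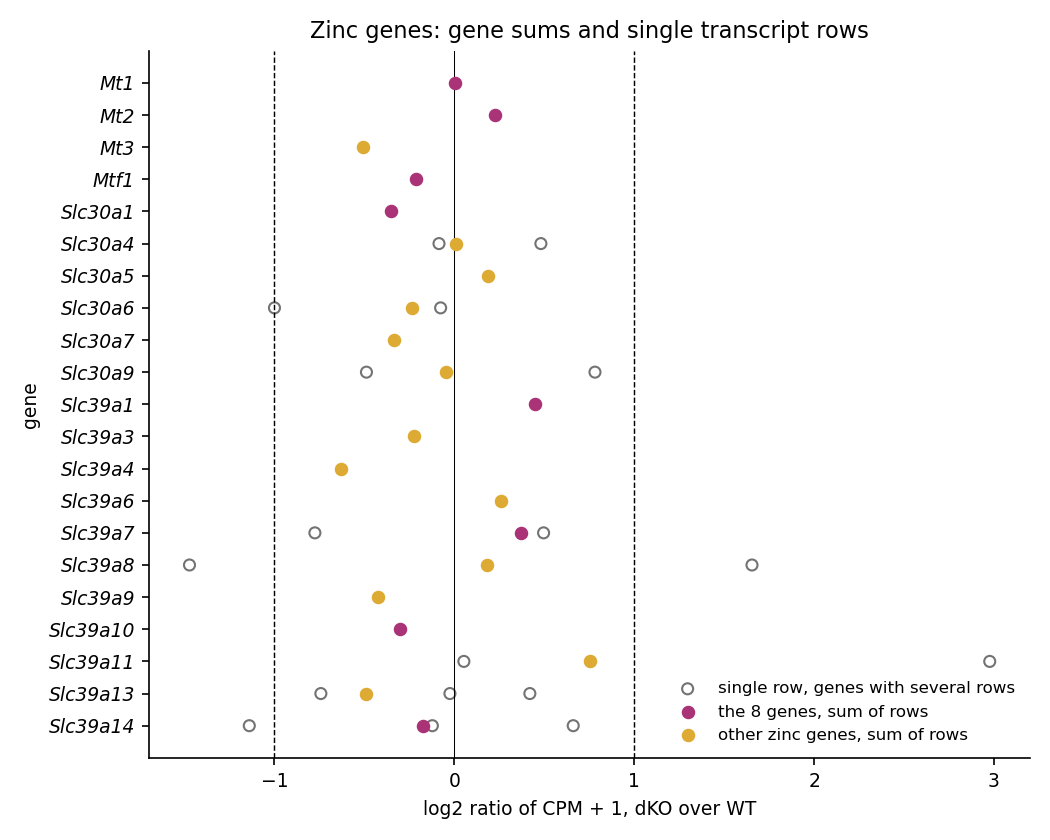
Log2 ratio of CPM + 1 (dKO over WT) of the 21 measured zinc genes as sums of their rows (filled points) and as single rows of genes with several rows and at least 10 counts (open points), with dashed 2-fold lines. Each filled point lies between the lines, while single rows of Slc39a14, Slc39a8 and Slc39a11 lie beyond them.

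No other zinc gene was 2-fold apart by the sum of its rows, though their log2 ratios ran wider than those of the members, from −0.63 to 0.75. Of 21 other metallothionein, ZnT and ZIP genes, 13 were measured, 0 were 2-fold higher and 0 were lower, against 6.22% of all measured genes. With only 13 measured, nothing particular to zinc genes can be read from this count. The median log2 ratio of these 13 was −0.22, against −0.02 for all measured genes. Mt3, the metallothionein gene best known from brain, had 78 counts in WT and 43 in dKO (log2 ratio −0.51), and Mt4, of squamous epithelium, named after its values were seen, had 0 in both. Among 5 measured ZnT genes the median was −0.04. Slc30a5 and Slc30a7, which encode zinc transporters of the early secretory pathway, had the highest mean CPM of both libraries, with 58.6 and 67.0 CPM for Slc30a5 (log2 ratio 0.19) and 59.5 and 47.0 CPM for Slc30a7 (−0.34). Slc30a1 held 4.88% of the summed ZnT level per length in WT and 4.02% in dKO. Slc30a8, the zinc transporter gene of insulin granules, also named after its values were seen, had 0 counts in both.

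Among 7 other measured ZIP genes the median log2 ratio was −0.22, with a range of −0.63 to 0.75. Slc39a6 and Slc39a9 had the highest mean CPM, with values of 0.26 (54.9 and 65.8 CPM) and −0.42 (41.3 and 30.5 CPM). The ends of the range, named after their values were seen, were Slc39a4 and Slc39a11. Slc39a4, the importer gene of the intestine, had 22 counts in WT and 0 in dKO, where 0 allows up to 3. Slc39a11 had 383 and 674 counts, and its difference lies in a row of 2742 bases with 0 counts in WT and 275 in dKO, next to a row of 2721 bases with 383 and 399. Of 13 measured genes handling copper, another metal that metallothioneins bind, 0 were 2-fold apart in either direction, against 6.22% of all measured genes. The median of that list was −0.01. Its members with the highest mean CPM were Cp, the gene of the copper ferroxidase ceruloplasmin (485 and 482 CPM, log2 ratio −0.01), and Sod1, the copper and zinc superoxide dismutase gene (168 and 235 CPM, 0.48).

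Targets of pathways that are known to act on metallothionein genes did not share 1 direction. Of 17 targets of the oxidative stress factor Nrf2, 3 were 2-fold higher and 0 lower; the median of the list was 0.29 on the log2 scale. Those were Srxn1 (2.12), Hmox1 (1.60) and Gclm (1.05), the genes of sulfiredoxin, heme oxygenase and a subunit of the glutathione-synthesis enzyme. Of 13 glucocorticoid-responsive genes, 3 were 2-fold lower and 0 higher: Zbtb16 (−1.75) and Tsc22d3 (−1.58), both transcriptional regulators, and Fam107a (−1.30). That list had a median of 0.12, with 7 of 13 genes above 0. Its member Errfi1, named after its value was seen, had a log2 ratio of 0.997, just short of the 2-fold rule. Of 12 genes responsive to IL-6 and STAT3, 2 were higher, the kinase gene Pim1 (1.22) and the transcription factor gene Cebpb (1.02), and the lipocalin gene Lcn2 was lower (−1.21), with a median of 0.12. These counts moved with the trend subtracted: 2 Nrf2 targets were higher (Gclm fell short at 0.92), 5 glucocorticoid-responsive genes were lower, and in the IL-6 and STAT3 list 0 were higher (Pim1 0.79, Cebpb 0.51) and 2 lower. Mt1 and Mt2, which were not called, had log2 ratios of 0.00 and 0.23 before that step. The background was 1.92% higher and 4.30% lower, and any part of these pathways in the metallothionein levels was not tested.

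The libraries also differed in markers of other cell types, which the sort was set to exclude. As background to each count below, 4.30% of all measured genes were 2-fold lower in dKO, 1.92% higher and 6.22% in either direction. All 17 endothelial and all 21 measured immune markers were below 0, with 14 and 18 of them 2-fold lower in dKO. Their summed levels were 1001 CPM in WT and 419 in dKO for the endothelial list, and 340 and 106 CPM for the immune list. Progenitor markers of connective tissue had 9 of 15 members 2-fold lower, mural markers 3 of 12 and tendon markers 3 of 9, and 0 of 10 glial markers were 2-fold apart. Of 16 mature myofibre genes, 1 was 2-fold higher and 0 lower (1351 and 1160 CPM summed). In dKO, 2 immune markers had 0 counts. The summed levels in WT and dKO were 6196 and 4561 CPM (progenitor), 4181 and 4724 (mural), 5052 and 2460 (tendon) and 764 and 724 (glial). The mural sum was higher in dKO although 10 of 12 mural markers were below 0, with a median log2 ratio of −0.50. The 2 above 0 were Des (1184 and 1724 CPM) and Notch3 (1201 and 1741 CPM), named after their values were seen. Notch3 is also among the muscle stem cell markers. Of 16 muscle stem cell markers, 0 were 2-fold apart. With the trend subtracted 2 were lower, Pax7 (−1.14) and the chemokine receptor gene Cxcr4 (−1.04), named after its value was seen. Without that step Pax7 had a log2 ratio of −0.82 and Vcam1, used for the sort, one of 0.83. Of the other sorted antigens, Pecam1 had −1.48, Ptprc −2.07 and Ly6a −2.47. Metallothionein and ZIP genes are expressed in many of these cell types, and the part of those cells in the values above was not tested. In such bulk samples, fewer cells of a type and less RNA per cell cannot be told apart.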

How the data were processed

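RNA-seq read counts of 1 WT and 1 dKO library of sorted muscle stem cells were used. The deposited table holds whole-number counts, 1 row per transcript, with Entrez gene ID and transcript length, per the file headers. The submitters' processing notes name mm10, bedtools, edgeR and TopHat2 2.0.9, with no role or order. How reads were counted, on which annotation and with which strand setting is not stated there, and reads of overlapping or near-identical genes cannot be told apart.

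Of 24532 gene IDs (36780 rows), 24462 were matched to a symbol in the RefSeq table of GRCm38.p6. The 8 members have 11 rows, and rows of a gene were summed. TMM factors from edgeR 4.0.16 (R 4.3.3) were 1.09 for WT and 0.916 for dKO. Log2 ratios took a pseudocount of 1 CPM. Folds are ratios of CPM with exact conditional binomial (Clopper-Pearson) 95% intervals, and counts have exact Poisson ones. These intervals show counting error alone and leave out variation between animals. Reads copied by PCR are not separate molecules, so the intervals may be too narrow for counting error as well. Levels per kilobase used the row with the highest mean share of both libraries. The trend was a cubic fit of log2 ratio on mean abundance and transcript length over measured genes.

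The 8 members, the lists and the 2-fold rule were chosen with earlier results of these data known. Named besides the members were, per zinc or copper list, genes 2-fold apart and the 2 most abundant ones, up to 3 of those 2-fold apart per regulator list, Pax7 and the sorted antigens. Outside this rule, and after their values were seen, Mt4, Slc30a8, Slc39a4, Slc39a8, Slc39a11, Cxcr4, Errfi1, Des and Notch3 were named. Esr2 was named as a targeted gene. No gene was named for a like pattern, which 2 libraries cannot show. On simulated counts (dKO against WT, 14603 measured genes), 86 of 100 genes changed by 2.5-fold and 97 of 100 changed by 4-fold were called, and 0 of 14403 unchanged ones. Those counts had Poisson noise alone around a mean shared by both libraries, and genes with very low or very high counts were not changed. Variation between animals was left out, so the simulation gives no rate of false calls for these 2 libraries. Alternatives were median-ratio scaling (DESeq2 1.42.0), library totals, pseudocounts of 0.1 and 5, the highest row, the trend subtracted, no count minimum or 100, and a 1.5-fold or 4-fold rule.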

Additional observations from a re-analysis of the deposited data

How the results depend on the processing

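No paired analysis was possible because each group has 1 library and the labels give no replicate numbers. For the 8 members, the count of 0 genes 2-fold higher and 0 lower held under every alternative run, the 1.5-fold rule included. Their median log2 ratio of −0.09 was −0.34 under library totals, and their mean was 0.00032, on the other side of 0. Library totals moved the median of all measured genes by −0.22, to −0.24. Signs turned for Mt1 (0.00) under library totals (−0.25), the highest row (−0.010) and the trend subtracted (−0.59), for Mt2 (0.23) under totals (−0.028) and the trend (−0.25), and for Mtf1 (−0.22) under the trend (0.066). The median of all measured genes (−0.02) became 0.0063 with the trend subtracted. The median of the other zinc genes (−0.22) was −0.46 under totals and −0.10 with the trend subtracted, and their mean was −0.12. Among these genes, 1 became 2-fold lower with a pseudocount of 0.1, 1 became higher by the highest row, and 1 was higher and 1 lower by a 1.5-fold rule. Of the 41 regulator targets, with 5 higher and 4 lower, 2 were higher under totals, 2 were lower with a pseudocount of 5, 2 were higher and 7 lower with the trend subtracted, 10 and 7 passed a 1.5-fold rule and 1 and 0 a 4-fold rule. Over all genes, 286 higher and 640 lower became 130 and 1040 under totals (88.9% lower, against 69.1%), 698 and 1653 with a pseudocount of 0.1, 154 and 187 with one of 5 (54.8% lower), 306 and 429 with the trend subtracted (58.4% lower), 455 higher by the highest row, 1336 and 1955 by a 1.5-fold rule and 25 and 56 by a 4-fold rule. Depth limits Mt3, Slc39a8 and Slc39a4, with under 100 counts per library, but not the members.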
